A study of Homo sapiens with 18 samples.

Results

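Interferon-stimulated genes are the genes that cells switch on after sensing interferons, the secreted signals of antiviral defence. The set described here was a list of 39 such genes, chosen by name, with earlier results of these data known. A listed gene was kept if 1 of its probes had a detection p-value under 0.01 on at least 2 of the 18 arrays, and the probe with the highest mean over all arrays then stood for the gene. Of the 39 genes, 38 had a probe with that gene name and 32 passed, among 11590 genes that passed in all. The 6 genes whose probes did not pass were OAS2, IFIT5, IFITM1, BST2, MX2 and IFI16, with OAS2 and BST2 detected on 1 array each and the other four on none. STAT2 had no probe under its name in the annotation used and was not analysed here. The gene listed as DDX58 is called RIGI below, its current symbol.

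Expression was measured in LNCaP, an androgen-dependent human prostate cancer line, with 1 array for each of 9 constructs under 2 treatments. LNCaP cells with a short hairpin against FOXA1 expressed the mutants D226N, M253K, F266S, FENG, G87R or L388M, wild-type FOXA1, or GFP (the knockdown cells), and the control cells carried the empty hairpin vector pGIPZ with GFP. FOXA1 is a forkhead transcription factor that opens closed chromatin for other factors. All cells were starved of hormone for 3 days in medium with 5% charcoal-stripped serum and then received 1 nM R1881, a synthetic androgen, or ethanol for 24 h. The DNA-binding forkhead contains residues 226, 253 and 266 but not residues 87 and 388. FENG is a name that the labels do not define. No source says whether the lines were clones or pools.

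Type I interferons signal through a receptor of IFNAR1 and IFNAR2 with the kinases JAK1 and TYK2, and activate a complex containing STAT2 and IRF9 that binds the interferon-stimulated response element. Interferon gamma signals through IFNGR1 and IFNGR2 with JAK1 and JAK2, and its targets carry the gamma-activated site. The guanylate-binding proteins and IRF1 are classical interferon gamma targets, whereas IFIT, OAS and MX genes and ISG15 are mainly known as type I targets. LNCaP is known as a line with little JAK1 and weak responses to added interferon.

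Promoter windows from 250 bases before to 50 bases after the annotated start were available for 25 of the 32 genes, from RefSeq (GRCh38.p14). No window was available for GBP2, TRIM22, IRF7, OASL, IFIT2, IFITM2 or USP18. Both consensus elements were searched on both strands, a pair of GAAA copies with any 2 bases between them for the response element and TTCNNNGAA for the gamma-activated site, together with the forkhead motif TGTTTAC. The response element occurred in 22 of 33 windows of these genes (66.7%), against 1255 of all 35116 windows (3.57%). Some windows overlap and share a site, as for IFI27, for IFI44, and for PARP9 with DTX3L. By gene, the response element occurred in 18 of 25. The gamma-activated site occurred in 8 of 33 (24.2%), against 7.66% of all windows. The forkhead motif occurred in 0 of 33, against 3.42% of all windows, which says only that these letters were not in these windows. GBP1, IFIH1, SAMD9 and IRF1 are printed as examples of genes called in several comparisons of constructs below, and ISG15 and IFIT1 as genes called in none of those. Each line gives the 180 bases before the start, 5′ to 3′ on the gene's strand, with both elements in capitals.
GBP1, chr1:89065209-89065388, minus strand: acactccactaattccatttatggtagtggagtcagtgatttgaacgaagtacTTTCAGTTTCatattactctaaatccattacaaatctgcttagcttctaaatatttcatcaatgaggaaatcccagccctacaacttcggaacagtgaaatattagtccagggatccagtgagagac
IFIH1, chr2:162318685-162318864, minus strand: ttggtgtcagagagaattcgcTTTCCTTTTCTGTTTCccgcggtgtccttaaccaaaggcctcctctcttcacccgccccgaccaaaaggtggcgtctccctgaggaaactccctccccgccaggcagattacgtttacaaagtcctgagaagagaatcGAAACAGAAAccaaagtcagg
SAMD9, chr7:93117980-93118159, minus strand: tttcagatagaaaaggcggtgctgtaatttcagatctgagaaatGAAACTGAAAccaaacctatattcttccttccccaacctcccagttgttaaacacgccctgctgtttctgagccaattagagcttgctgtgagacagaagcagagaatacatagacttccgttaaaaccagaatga
IRF1, chr5:132490774-132490953, minus strand: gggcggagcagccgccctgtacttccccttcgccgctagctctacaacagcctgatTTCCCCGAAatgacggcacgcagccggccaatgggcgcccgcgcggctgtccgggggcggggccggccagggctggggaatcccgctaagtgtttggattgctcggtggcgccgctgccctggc
ISG15, chr1:1013317-1013496, plus strand: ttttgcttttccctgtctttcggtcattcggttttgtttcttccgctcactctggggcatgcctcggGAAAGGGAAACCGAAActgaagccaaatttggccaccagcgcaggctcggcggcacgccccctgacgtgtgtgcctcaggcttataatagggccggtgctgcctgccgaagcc
IFIT1, chr10:89392443-89392622, plus strand: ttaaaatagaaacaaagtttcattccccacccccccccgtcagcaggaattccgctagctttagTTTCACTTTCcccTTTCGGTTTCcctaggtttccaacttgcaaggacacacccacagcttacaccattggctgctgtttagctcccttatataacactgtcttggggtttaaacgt
The single capital run of IRF1 is a gamma-activated site, and every other capital run is a response element or overlapping copies of it. Of the genes with a window, the response element was found in 9 of 13 that passed the test in at least 1 comparison below and in 9 of 12 that passed in none.

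Values are log2 intensities after background correction and quantile normalization. All 9 constructs and both treatments entered 1 additive limma fit with construct and treatment as terms, and a gene was called at a Benjamini-Hochberg adjusted p under 0.05 over all 11590 genes. Each construct had 2 arrays, 1 per treatment, so every comparison of constructs rests on few arrays. Separate cultures are not stated for them in the sources. P-values measure only the spread left by that fit, which may be technical. The arrays had similar brightness, with mean raw intensities of 233.1 to 303.9. The arrays of M253K with ethanol, FENG with R1881 and G87R with ethanol shared a deviation from the fit and are called the deviating arrays. In bulk RNA, fewer cells expressing a gene and less RNA per cell cannot be told apart.

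The FOXA1 probe read 11.07 with R1881 and 11.16 with ethanol in knockdown cells, against 11.73 and 11.93 in control cells. FOXA1 was lower in knockdown cells by limma (log2 difference -0.71 ± 0.12 SE, adjusted p = 0.00287). The 14 arrays of hairpin cells with a FOXA1 construct read 10.61 to 11.1, so this probe showed no gain from the added construct. Whether the probe lies in the expressed part of the constructs is not given in the sources used here.

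GBP2 and IRF1 were higher in knockdown cells than in control cells, lower with wild-type FOXA1 than in knockdown cells, and higher with M253K, FENG and F266S than with wild-type FOXA1. GBP1 moved the same way, but it passed the filter through arrays on which it was high, as described below. Counts of genes and calls below include GBP1, and TRIM22, which has the same limit. Where either is among them, a count set beside the share over all genes is raised by it and is no support. GBP2 and IRF1 were each called in 8 of 11 comparisons, GBP1 in 6, and IFIH1 and TRIM22 in 5. The comparisons share arrays, those of wild-type cells entering most of them, so these calls are not separate evidence. At the other end 15 genes were called in none: OAS1, OAS3, IFIT2, IFIT3, IFITM2, MX1, IFI6, IFI44L, ISG15, USP18, UBE2L6, PARP9, DTX3L, PARP14 and XAF1. A second kept UBE2L6 probe, detected on 16 arrays, gave -0.72, -0.78 and -0.65 for M253K, FENG and F266S against wild type. The probe used gave -0.17, -0.34 and -0.59. Other kept OAS1 probes, detected on 3 and 6 arrays, gave 0.98 and 0.35 for knockdown against control, where the probe used gave 0.5. In signal, 21 of the 32 were detected on all 18 arrays and 11 on fewer, down to TRIM22 on 6, IFIT3 on 8 and OASL on 9.

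**Figure D1:**
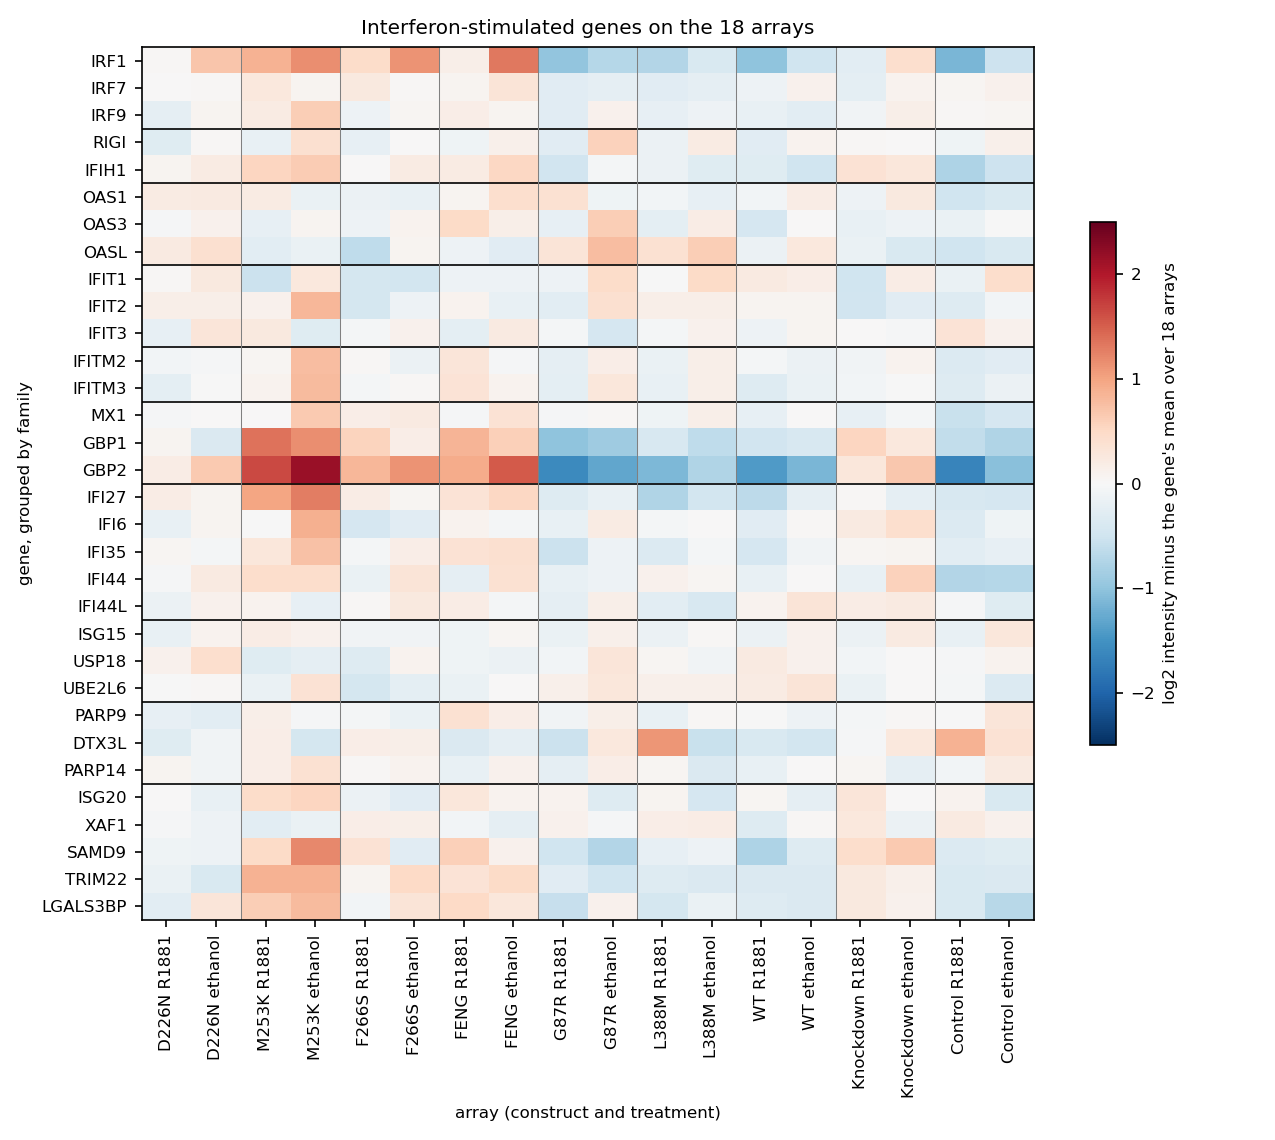
Log2 intensity of the 32 genes on each of the 18 arrays, as the difference from the gene's own mean over all arrays (colour scale in log2 units). Columns are arrays by construct and treatment, and rows are genes grouped by family. The rows of GBP2, IRF1 and GBP1 carry the strongest colours, red or near white in D226N, M253K, F266S and FENG cells for GBP2 and IRF1 and blue in G87R, L388M, wild-type and control cells.

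Forkhead mutants were compared with the mutants outside the forkhead by setting the 6 arrays of D226N, M253K and F266S against the 4 of G87R and L388M. Of the 32 genes, 10 were higher and 1 was lower, while 12.7% of all genes were called either way (7.19% higher and 5.52% lower). The median log2 difference of the 32 genes was 0.146, against -0.015 for all genes. GBP2 differed most among them.

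GBP2 encodes an interferon-induced GTPase of the guanylate-binding family, which coats and disrupts intracellular pathogens. With R1881 and then ethanol it read 8.81 and 9.29 in D226N cells, 10.28 and 10.8 in M253K cells, and 9.46 and 9.76 in F266S cells, against 7.05 and 7.33 in G87R cells and 7.51 and 7.88 in L388M cells. Every forkhead array lay above every array of the other class. The difference was 2.29 ± 0.08 log2 units, or 4.89-fold (adjusted p = 3.32e-09, limma). FENG cells read 9.56 and 10.17, wild-type cells 7.21 and 7.49, knockdown cells 8.92 and 9.31, and control cells 6.98 and 7.58.

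GBP1, its relative, was dimmer but moved the same way. It read 5.38 and 4.95 in D226N cells, 6.67 and 6.48 in M253K cells, and 5.88 and 5.48 in F266S cells, against 4.3 and 4.42 in G87R cells and 4.91 and 4.67 in L388M cells. It was not detected on any of the 4 arrays of G87R and L388M, and detected on all 6 forkhead arrays. GBP1 was at least 1.91-fold higher in the forkhead class (fitted difference 1.23 ± 0.1, adjusted p = 3.57e-06, limma). The bound sets the brighter mean against the lowest signal among detected probes where the gene's own signal was below it. A second kept GBP1 probe gave a difference of 1.04. Of the 11 arrays on which GBP1 was detected, 10 were those of D226N, M253K, F266S, FENG and knockdown cells, so passing the filter and reading high went together. Its differences and calls here and below are therefore a description and no support. MX1, the antiviral dynamin-like GTPase set beside the GBP genes, averaged 6.7 in the forkhead class and 6.54 in the other and was not called (0.17 ± 0.1, adjusted p = 0.33, limma).

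Among the regulators, IRF1 stood out. IRF1 is a transcription factor that activates many interferon gamma targets. It read 6.49 and 7.15 in D226N cells, 7.32 and 7.62 in M253K cells, and 6.92 and 7.58 in F266S cells, against 5.47 and 5.75 in G87R cells and 5.72 and 6.07 in L388M cells, with R1881 and then ethanol. The classes did not overlap, and the difference was 1.42 ± 0.12 log2 units or 2.68-fold (adjusted p = 6.35e-06, limma). IRF7, the amplifier of type I interferon production, was higher by a smaller margin, at 7.97 in the forkhead class and 7.62 in the other (0.36 ± 0.1, adjusted p = 0.0301, limma). A second kept IRF7 probe, detected on 16 arrays, gave a difference of 0.1, and with the mean of both probes IRF7 was not called (0.23, adjusted p = 0.119). IRF9, the DNA-binding subunit of the type I complex, was not called (0.23 ± 0.1).

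Of the cytosolic RNA sensors, IFIH1 (MDA5) was higher and RIGI was not called. IFIH1 read 6.26 and 6.41 in D226N cells, 6.74 and 6.84 in M253K cells, and 6.21 and 6.41 in F266S cells, against 5.72 and 6.14 in G87R cells and 6.05 and 5.9 in L388M cells. All forkhead arrays exceeded the others, although by little for F266S and D226N with R1881. The difference was 0.53 ± 0.1 (adjusted p = 0.00513, limma), and that of RIGI was -0.12 ± 0.11.

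IFI27, a small mitochondrial and nuclear envelope protein, read 5.32 and 5.2 in D226N cells, 6.12 and 6.41 in M253K cells, and 5.32 and 5.19 in F266S cells, against 4.82 and 4.96 in G87R cells and 4.39 and 4.68 in L388M cells. Only 1 of the 4 arrays outside the forkhead class, that of G87R with ethanol, had it detected. The difference was 0.88 ± 0.11 (adjusted p = 0.000157, limma), and M253K cells held the highest readings. IFI35 rose by 0.45 ± 0.1 (adjusted p = 0.00909) in the same fit.

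The other calls were weaker or partly overlapping. TRIM22, an antiviral ubiquitin ligase, was detected on 3 of 6 forkhead arrays and on none of the other 4, and was at least 1.04-fold higher. It passed the detection filter only through 6 arrays on which it was high (both of M253K and FENG, F266S with ethanol and knockdown with R1881), so its differences here and below are a description and its calls are no support. SAMD9, a cytosolic antiviral factor, differed by 0.64 ± 0.17 (adjusted p = 0.0263), and LGALS3BP, a secreted glycoprotein, by 0.55 ± 0.15 (adjusted p = 0.0251). The arrays of the classes overlapped for these 3 genes.

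OASL, an inactive relative of the oligoadenylate synthetases, was the 1 gene that was lower. It read 5.23 and 5.4 in D226N cells, 4.73 and 4.83 in M253K cells, and 4.37 and 5.07 in F266S cells, against 5.32 and 5.77 in G87R cells and 5.39 and 5.62 in L388M cells. It was detected on all 4 arrays outside the forkhead class and on 3 of 6 inside. The difference was -0.59 ± 0.13 (adjusted p = 0.00861, limma), with D226N cells close to the G87R and L388M range. The value reached an adjusted p of 0.0565 without the G87R ethanol array.

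Complete separation of the 6 forkhead arrays above the 4 others held for IRF1, IRF7, IFIH1, GBP1, GBP2 and IFI27, which is 6 of 32, against 4.06% of all genes. No gene of the set had all 6 forkhead arrays below the 4 others, against 3.51% of all genes. Calls of IRF7, IFI35, SAMD9 and LGALS3BP depended on single arrays. Scaling the arrays to a common median, without quantile normalization (median scaling below), ended the IRF7, IFI35 and LGALS3BP calls. Leaving out 1 array ended the IRF7 call for G87R, L388M and D226N under either treatment and for F266S with R1881 (adjusted p up to 0.119, here and below the highest over all settings tried). The SAMD9 call ended on the same 7 omissions (up to 0.126). IFI35 was lost without the R1881 array of G87R or L388M (up to 0.0802), and LGALS3BP without the ethanol array of D226N, F266S or L388M or the R1881 array of G87R or L388M (up to 0.134). Without the 3 deviating arrays, 10 genes were called in place of 11, with SAMD9 lost.

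**Figure D2:**
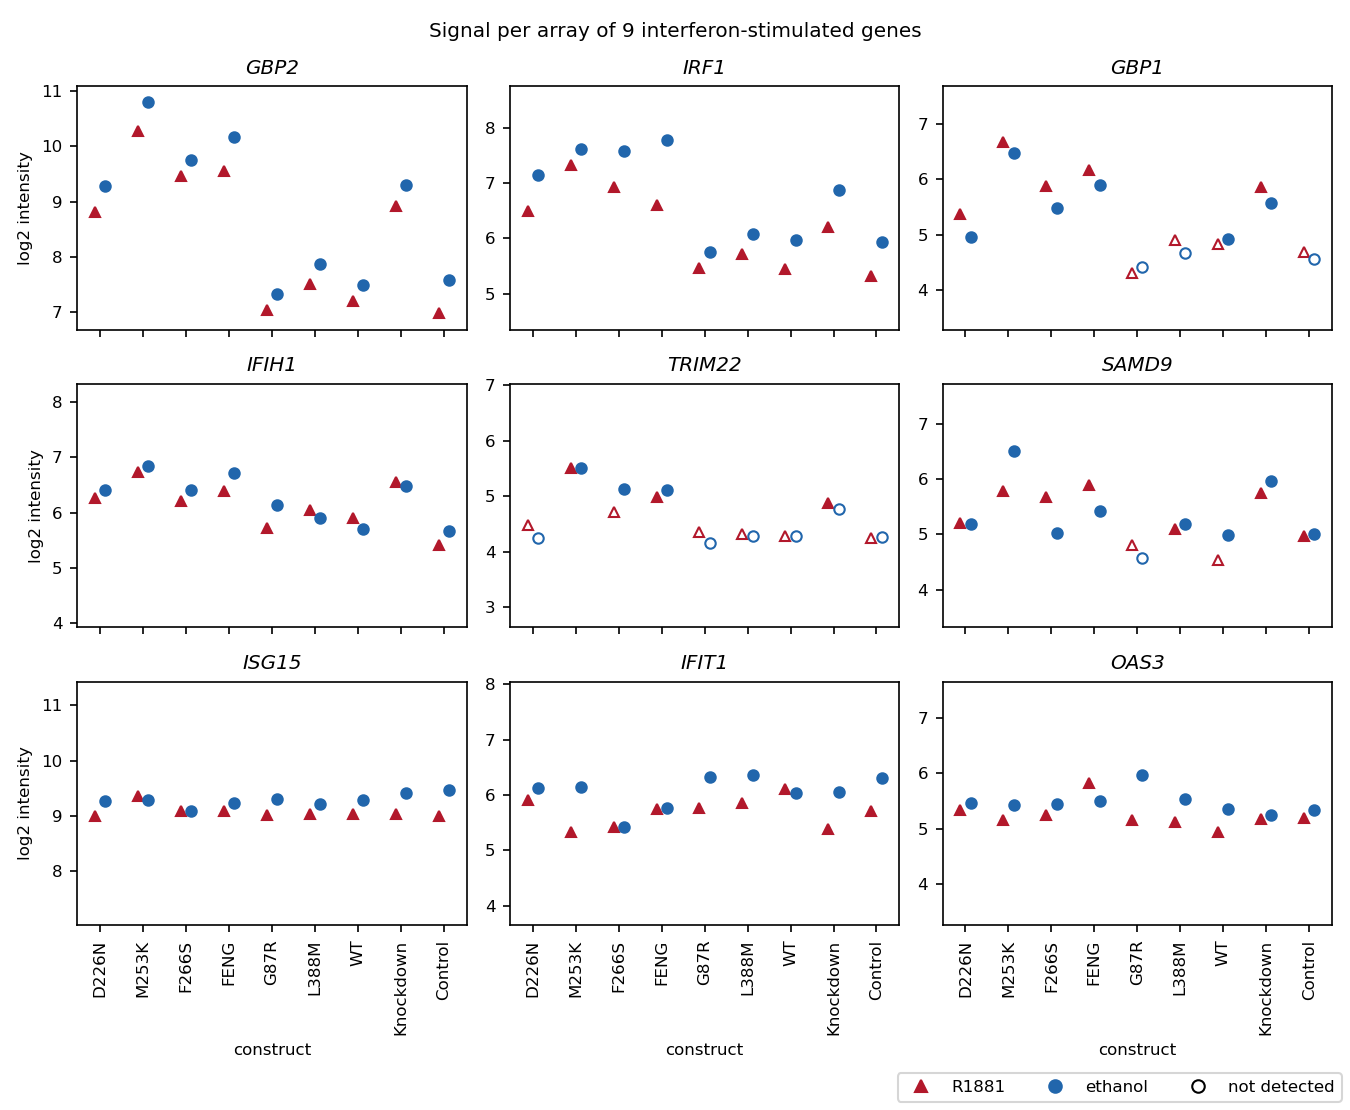
Log2 intensity of 9 genes on each array (y axis) by construct (x axis), with triangles for R1881, circles for ethanol and open symbols where the probe was not detected at p under 0.01. GBP2 read 8.81 to 10.8 in the 4 leftmost constructs, against 6.98 to 7.88 in G87R, L388M, wild-type and control cells, while ISG15, IFIT1 and OAS3 showed no such step.

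Beside OASL, which was lower, the measured OAS, IFIT, IFITM and MX genes and ISG15 were not called between the classes. ISG15, the ubiquitin-like modifier, read 8.99 and 9.26 in D226N cells, 9.36 and 9.29 in M253K cells, and 9.09 and 9.09 in F266S cells, against 9.01 and 9.31 in G87R cells and 9.04 and 9.21 in L388M cells. Its difference was 0.03 ± 0.09. IFIT1, which binds viral RNA lacking host cap methylation, read 5.91 and 6.13 in D226N cells, 5.34 and 6.14 in M253K cells, and 5.43 and 5.42 in F266S cells, against 5.76 and 6.33 in G87R cells and 5.86 and 6.36 in L388M cells. Its classes overlapped (-0.35 ± 0.14). The enzymes OAS1 (0.02 ± 0.13) and OAS3 (-0.1 ± 0.13), which activate RNase L, were close to 0. So were IFITM2 (0.13 ± 0.14) and IFITM3 (0.11 ± 0.12), membrane proteins that block viral entry. PARP9, an ADP-ribosyltransferase family member that pairs with the ubiquitin ligase DTX3L, read 6.94 and 6.88 in D226N cells, 7.29 and 7.12 in M253K cells, and 7.09 and 6.97 in F266S cells, against 7.05 and 7.3 in G87R cells and 6.96 and 7.17 in L388M cells. DTX3L itself scattered near the detection limit, with its highest readings in L388M cells (6.14) and control cells (5.9) under R1881. The 21 genes without a call lay between -0.35 (IFIT1) and 0.24 (IFI44).

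Each mutant was then compared with wild-type FOXA1. M253K gave the most calls, with 12 of 32 genes higher and none lower, against 13.1% of all genes (8.48% higher and 4.62% lower). The median difference was 0.416 for the set and 0.024 for all genes. GBP2 was 9.1-fold higher (3.19 ± 0.13 log2 units, adjusted p = 1.57e-08, limma), at 10.28 and 10.8 in M253K cells and 7.21 and 7.49 in wild-type cells. IRF1 was 3.4-fold higher at 1.77 ± 0.19 (adjusted p = 5.16e-05), with 7.32 and 7.62 in M253K cells and 5.45 and 5.96 in wild-type cells.

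The next largest differences from wild type in M253K cells were GBP1 at 1.7 ± 0.15 (adjusted p = 1.17e-05, limma) and IFI27 at 1.56 ± 0.17 (adjusted p = 5.91e-05). SAMD9 followed at 1.39 ± 0.26 (adjusted p = 0.00406). TRIM22, undetected in wild-type cells at 4.28 and 4.28 and at 5.51 and 5.5 in M253K cells, exceeded them at least 1.6-fold. LGALS3BP differed by 1.04 ± 0.23, IFIH1 by 0.98 ± 0.16, IFI35 by 0.76 ± 0.15, IFITM3 by 0.69 ± 0.19, IRF9 by 0.64 ± 0.15 and ISG20, a 3′ to 5′ exonuclease, by 0.58 ± 0.15.

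Part of the M253K list rested on its ethanol array, 1 of the deviating arrays. IFITM2 read 10.09 with R1881 and 10.83 with ethanol in M253K cells, against 10 and 9.9 in wild-type cells, and was not called. IFITM3 read 9.69 and 10.39 in M253K cells, against 9.28 and 9.42 in wild-type cells. Without the deviating arrays IRF9, IFITM3 and ISG20 were no longer called and 9 genes remained, and median scaling ended the calls of IFI35, IFITM3, IRF9 and ISG20. The 20 uncalled genes lay between -0.44 (USP18) and 0.57 (IFI6). Leaving out the wild-type ethanol array alone left 8, with LGALS3BP, IRF9, IFITM3 and ISG20 lost. Without the wild-type R1881 array SAMD9 (adjusted p up to 0.0686), IFI35 (up to 0.145), IFITM3 (up to 0.25) and ISG20 (up to 0.307) were lost.

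FENG gave 7 genes higher and none lower, against 5.93% of all genes called either way (3.73% higher and 2.2% lower). GBP2 read 9.56 and 10.17 in FENG cells and 7.21 and 7.49 in wild-type cells, a difference of 2.51 ± 0.13 (adjusted p = 2.32e-07, limma). IRF1 was higher by 1.49 ± 0.19, GBP1 by 1.16 ± 0.15, IFI27 by 0.86 ± 0.17, IFIH1 by 0.76 ± 0.16 and IFI35 by 0.63 ± 0.15. TRIM22 was at least 1.16-fold higher. The calls of GBP2, IRF1 and GBP1 held on leaving out any 1 array, and IFI35 was lost without the deviating arrays. IFIH1 lost its call without the ethanol array of FENG or wild type (adjusted p up to 0.204) and IFI27 without the wild-type R1881 array (up to 0.149). IFI35 lost it without either wild-type array or the FENG R1881 array (up to 0.379), and TRIM22 without either wild-type array or the FENG ethanol array (up to 0.0985). Median scaling ended the calls of IFI27, IFI35, IFIH1 and TRIM22. The 25 uncalled genes lay between -0.34 (UBE2L6) and 0.9 (SAMD9, adjusted p = 0.0683).

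F266S gave 4 genes higher and none lower, against 5.56% of all genes (3.53% higher). These were GBP2 (2.26 ± 0.13, adjusted p = 7.17e-07, limma), IRF1 (1.54 ± 0.19, adjusted p = 0.000294), GBP1 (0.8 ± 0.15, adjusted p = 0.00759) and TRIM22, at least 1.07-fold higher. Without GBP1 and TRIM22, GBP2 and IRF1 were left. IFIT1 was the lowest of the uncalled genes at -0.65, with 5.43 and 5.42 in F266S cells and 6.11 and 6.04 in wild-type cells, and its call was gained without the deviating arrays, along with UBE2L6 lower and IFIH1 higher. The 28 uncalled genes reached up to 0.6 (SAMD9). GBP1 and TRIM22 lost their calls with median scaling. GBP1 lost its call without the R1881 array of F266S or of wild type (adjusted p up to 0.126). TRIM22 lost it without either wild-type array or the F266S ethanol array (up to 0.325).

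D226N gave 2 genes higher and none lower, against 1.41% of all genes (1% higher). GBP2 was 3.24-fold higher (1.7 ± 0.13, adjusted p = 2.6e-05, limma) and IRF1 2.17-fold higher (1.12 ± 0.19, adjusted p = 0.00912). IRF1 lost the call on leaving out any 1 of the 4 arrays compared (adjusted p up to 0.145). GBP1 differed from wild type by 0.29 in D226N cells and was not called. The 30 uncalled genes lay between -0.26 (UBE2L6) and 0.56 (IFI27).

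G87R and L388M, the mutants outside the forkhead, gave no call in the set by limma. For G87R 0% of all genes were called, and 2 of the 32 genes had an unadjusted p under 0.05 among 192 genes in all. For L388M 0.00863% were called, and 3 of the 32 had an unadjusted p under 0.05 among 248 genes. GBP2 differed from wild type by -0.16 ± 0.13 in G87R cells and 0.34 ± 0.13 in L388M cells. It read 7.05 and 7.33 in G87R cells and 7.51 and 7.88 in L388M cells, against 7.21 and 7.49 in wild-type cells. The 32 genes lay between -0.52 (GBP1) and 0.49 (OASL) in G87R cells and between -0.53 (IFI44L) and 0.69 (DTX3L) in L388M cells. A p-value above the threshold does not show that the lines were alike.

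Knockdown alone was next compared with the control vector. Of the 32 genes, 6 were higher and none lower in knockdown cells, against 8.3% of all genes called (4.56% higher and 3.74% lower). The set had a median difference of 0.235 and all genes -0.022. GBP2 led again, reading 8.92 and 9.31 in knockdown cells, against 6.98 and 7.58 in control cells, a 3.57-fold difference (1.84 ± 0.13, adjusted p = 1.51e-06, limma).

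GBP1 read 5.86 and 5.58 in knockdown cells and was undetected at 4.69 and 4.56 in control cells, at least 1.84-fold higher (fitted 1.09 ± 0.15, adjusted p = 0.000568). IFIH1 read 6.55 and 6.48 in knockdown cells, against 5.42 and 5.67 in control cells (0.97 ± 0.16, adjusted p = 0.00225). IRF1, the transcription factor, read 6.2 and 6.87 in knockdown cells, against 5.32 and 5.93 in control cells (0.91 ± 0.19, adjusted p = 0.0086). For these 4 genes both knockdown arrays lay above both control arrays. They were already called higher and the share of all genes in that order was not counted, so the order adds no support.

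IFI44, a microtubule-associated protein of antiviral responses, was called at 0.92 ± 0.2 (adjusted p = 0.0105, limma), with 6.82 and 7.59 in knockdown cells and 6.27 and 6.3 in control cells. TRIM22 was also called, with a detected signal on 1 of 2 knockdown arrays and no bound above 1-fold. IRF1 lost its call on leaving out any 1 of the 4 arrays (adjusted p up to 0.0817), IFI44 without the ethanol array of either line (up to 0.15) and TRIM22 without either array of knockdown, control, wild-type or L388M cells (up to 0.227). Without the deviating arrays 11 genes were called, OAS1, MX1, IFI6, SAMD9 and LGALS3BP being added, and with median scaling TRIM22 was lost. The 26 uncalled genes lay between -0.49 (DTX3L) and 0.87 (SAMD9, adjusted p = 0.0654, limma).

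**Figure D3:**
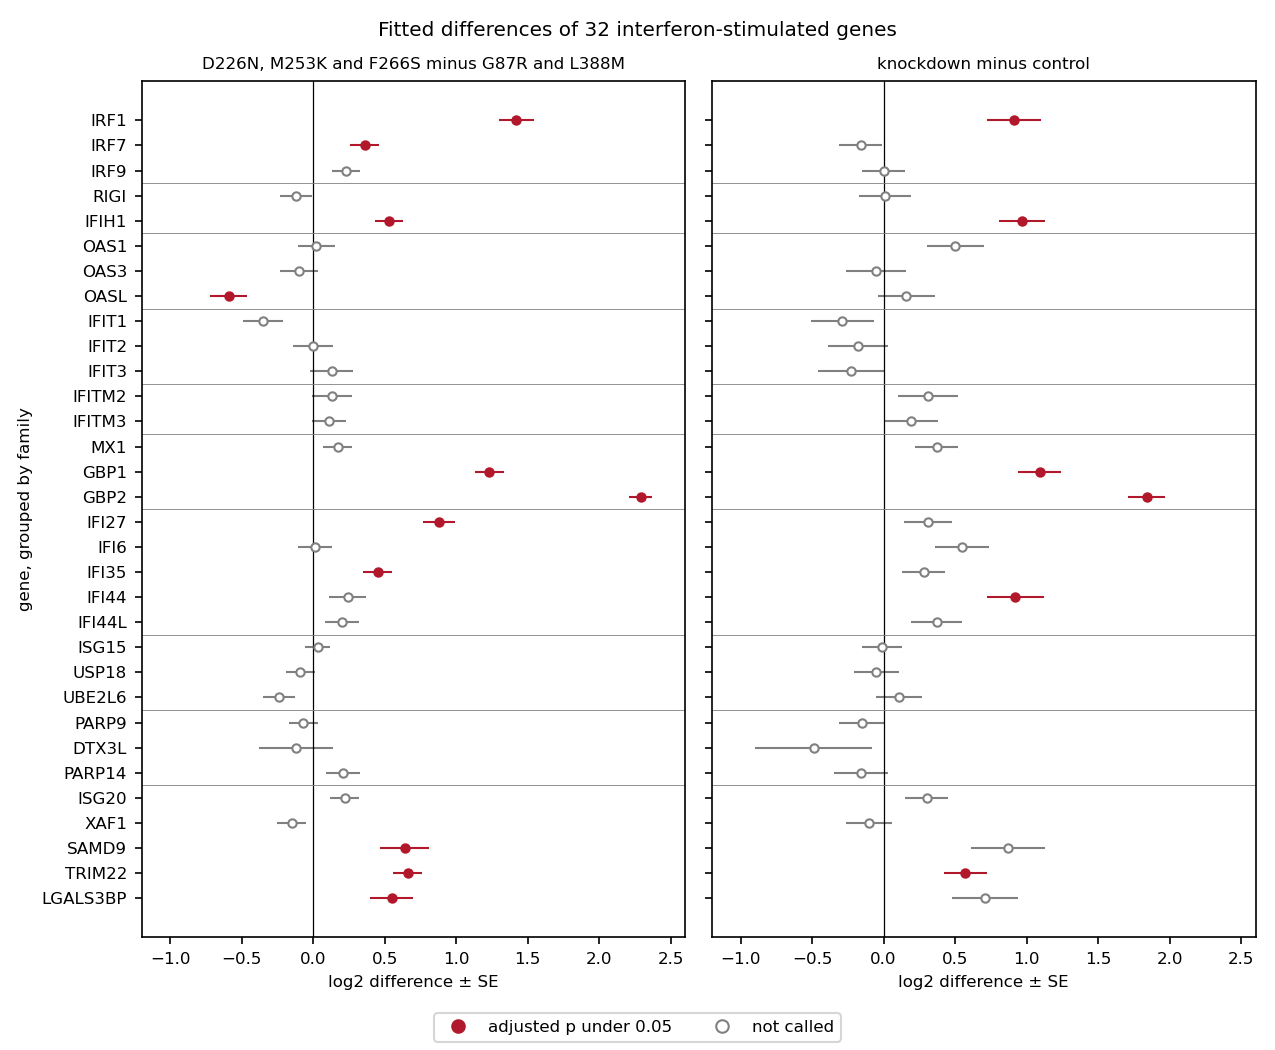
Fitted log2 differences with standard errors (x axes) of the 32 genes (y axes, grouped by family), for the forkhead class over the G87R and L388M class on the left and for knockdown against control cells on the right. Filled red points have an adjusted p under 0.05. GBP2 lies at 2.29 on the left and 1.84 on the right, and ISG15 lies near 0 in both.

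Wild-type FOXA1 in hairpin cells was set against knockdown cells. None of the 32 genes was higher and 5 were lower, against 4.62% of all genes called (2.03% higher and 2.6% lower). GBP2 fell by 1.76 on the log2 scale (SE 0.13, adjusted p = 4.7e-06, limma), to 7.21 and 7.49 in wild-type cells, against 8.92 and 9.31 in knockdown cells. SAMD9 fell by 1.1 (SE 0.26, adjusted p = 0.0332), GBP1 fell by 0.84 (SE 0.15, adjusted p = 0.00582), IRF1 fell by 0.83 (SE 0.19, adjusted p = 0.0233) and IFIH1 fell by 0.71 (SE 0.16, adjusted p = 0.0233). With median scaling GBP2 alone was called, and SAMD9, GBP1, IRF1 and IFIH1 were not. The 27 uncalled genes lay between -0.55 (TRIM22) and 0.44 (IFIT2).

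The knockdown arrays are shared by the comparisons with wild-type and with control cells, so a high reading on them would raise the gene in both. Wild-type cells against control cells use neither, and limma called none of the 32 genes there, while 0.733% of all genes were called and 6 of the 32 had an unadjusted p under 0.05, among 797 of 11590 genes in all. The 32 genes lay between -1.03 (DTX3L) and 0.63 (IFI44). GBP2 averaged 7.35 in wild-type cells and 7.28 in control cells. Leaving out the knockdown R1881 array left only the GBP2 call among the 5. IRF1 was lost without any 1 of the 4 arrays, IFIH1 without either knockdown array or the wild-type ethanol array, GBP1 without the R1881 array of either line and SAMD9 without either array of knockdown, wild-type or D226N cells (adjusted p up to 0.178, 0.278, 0.109 and 0.348 in that order). Without the deviating arrays 7 genes were lower, with IFI6 and TRIM22 added.

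Comparisons of the mutants with knockdown cells were added after these results were seen. M253K cells exceeded knockdown cells in 6 of 32 genes, against 3.26% of all genes higher and 0.733% lower. These were GBP2 (1.42 ± 0.13, adjusted p = 4.05e-05, limma), IFI27 (1.23 ± 0.17), IRF1 (0.94 ± 0.19), GBP1 (0.86 ± 0.15), IFIT2 (0.84 ± 0.21) and TRIM22 (0.68 ± 0.15). FENG cells exceeded knockdown cells in GBP2 alone, by 0.75 ± 0.13 (adjusted p = 0.0123), against 0.949% of all genes higher and 0.207% lower. Neither D226N nor F266S gave a call in the set by limma, against 1.35% of all genes higher and 1.26% lower for D226N and 2.19% higher and 1.23% lower for F266S. GBP2 differed by -0.07 ± 0.13 in D226N cells and 0.49 ± 0.13 in F266S cells. Without the deviating arrays M253K cells had 4 calls (IRF1, GBP1, GBP2 and IFI27), with IFIT2 and TRIM22 lost. FENG cells then had IRF1 and GBP2 higher, F266S cells had IRF1 and GBP2 higher and IFI6 lower, and D226N cells had IFIT2 higher and GBP1 lower.

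Androgen was compared with ethanol over all 9 constructs. Of the 32 genes, 1 was higher and 4 were lower with R1881, while 13.4% of all genes were called (5.86% higher and 7.57% lower). Values below 0 were given by 27 of the 32, with a median of -0.123 against -0.02 for all genes. Lower genes were IRF1 (-0.58 ± 0.09, adjusted p = 0.000734, limma), GBP2 (-0.43 ± 0.06, adjusted p = 0.000488), IFIT1 (-0.37 ± 0.1, adjusted p = 0.0301) and RIGI (-0.35 ± 0.08, adjusted p = 0.0126). The 27 uncalled genes lay between -0.26 (IFI6) and 0.19 (GBP1).

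In 9 of 9 constructs IRF1 was lower with R1881, by -0.28 in G87R cells to -1.18 in FENG cells, with a median of -0.61. GBP2 was also lower in 9 of 9, between -0.28 and -0.61. MX1 was lower in 9 of 9 too, between -0.04 and -0.64, without passing the test. These 3 of 32 compare with 5.18% of all genes lower in 9 of 9. None of the 32 was higher in 9 of 9, against 3.75% of all genes. ISG20 was the 1 gene higher, at 9.12 with R1881 and 8.85 with ethanol (0.27 ± 0.07, adjusted p = 0.0237, limma), in 8 of 9 constructs. GBP1 differed from GBP2 in this comparison, at 0.19 and uncalled.

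IFIT1 and ISG20 rested on single arrays, and ISG20 was not called with median scaling (adjusted p = 0.146). IFIT1 lost its call without either array of control, knockdown, G87R, D226N or L388M cells (adjusted p up to 0.0788), and ISG20 without either array of control, knockdown, wild-type, G87R or L388M cells (up to 0.146). Without the deviating arrays IFIT1 was lost and ISG15 was lower. The size of the R1881 response was also compared between the forkhead class and the 3 lines with wild-type FOXA1, G87R or L388M. None of the 32 genes differed by limma, with none under an unadjusted p of 0.05 either, while 0% of all genes passed the adjusted threshold and 400 genes (3.45%) an unadjusted one. Differences of the 32 genes ran from -0.32 to 0.35 log2 units.

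**Figure D4:**
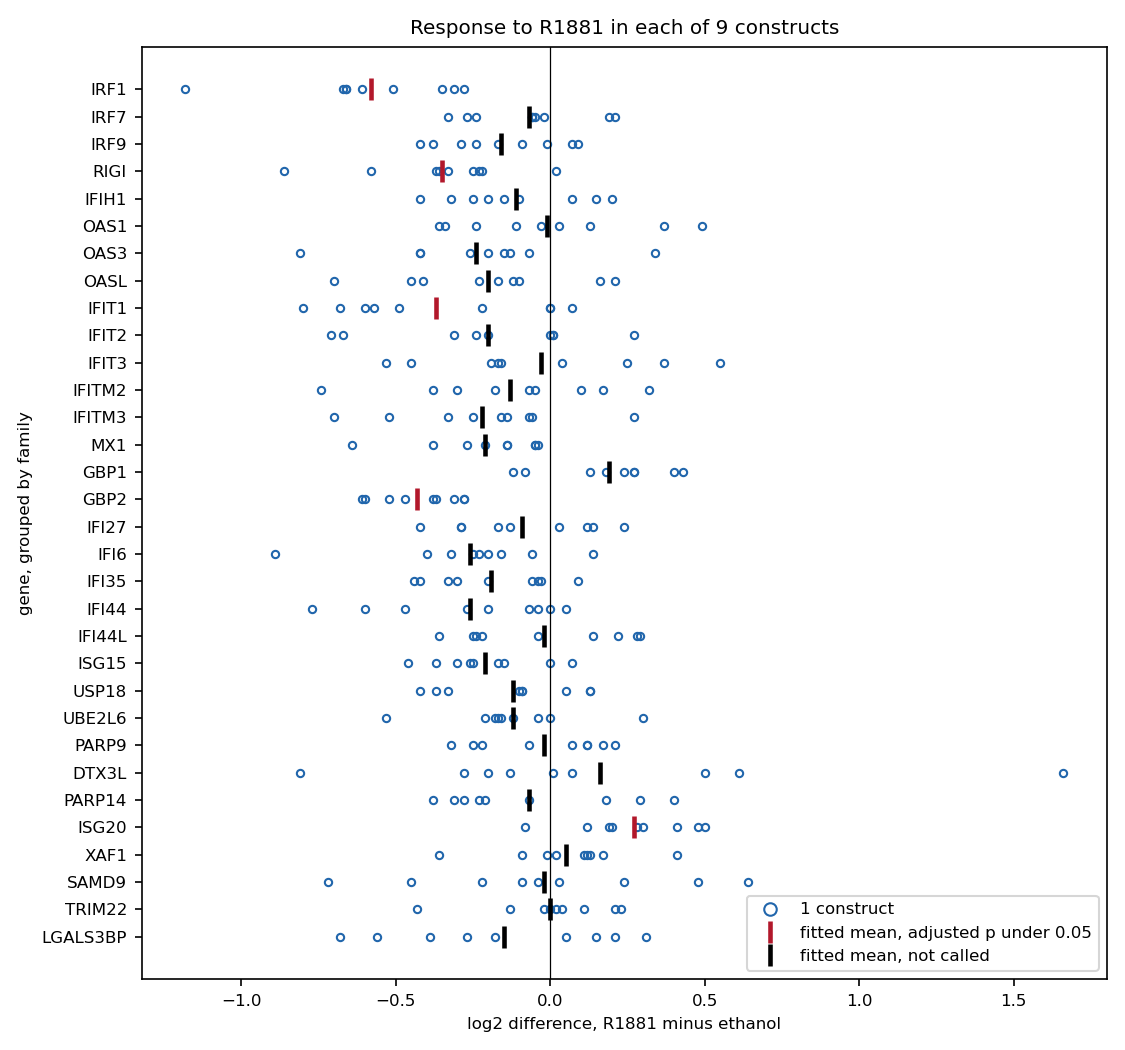
Difference between R1881 and ethanol in log2 intensity (x axis) for the 32 genes (y axis), with an open circle for each of 9 constructs and a bar for the fitted mean, red where the adjusted p was under 0.05. All 9 circles of IRF1 and GBP2 lie below 0, and the circle of IRF1 at -1.18 is FENG.

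Genes that act before the interferon-stimulated genes were read from listed ligands, receptors, sensors and inhibitors. Calls of these genes, and of the other lists below, were not checked gene by gene with median scaling or on leaving out arrays. None of 9 interferon ligand genes, IFNA1, IFNA2, IFNB1, IFNG, IFNE, IFNK, IFNL1, IFNL2 and IFNL3, passed the detection filter. JAK1 was detected on 3 of 18 arrays, D226N with ethanol (4.86), M253K with R1881 (5.21) and control with ethanol (4.86), and was called in no comparison.

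IFNGR1, the ligand-binding chain of the interferon gamma receptor, was the receptor gene that changed most. It read 10.51 and 10.78 in D226N cells, 11.43 and 11.89 in M253K cells, and 10.81 and 11.12 in F266S cells, against 9.02 and 9.34 in G87R cells and 9.47 and 9.67 in L388M cells. The classes did not overlap (1.71 ± 0.1, adjusted p = 1.47e-07, limma). It read 11.23 and 11.14 in FENG cells, 9.15 and 9.34 in wild-type cells, 10.82 and 10.73 in knockdown cells, and 8.48 and 8.83 in control cells.

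IFNGR1 was higher in knockdown than in control cells by 2.12 ± 0.15 (adjusted p = 1.51e-06) and fell by 1.53 with wild-type FOXA1 (adjusted p = 5.33e-05, both limma). Its partner chain IFNGR2 was not called in the class comparison (0.19 ± 0.1) or in knockdown cells (0.39 ± 0.16). Of 9 measured receptor and kinase genes, 2 were higher in the forkhead class and none lower, against 7.19% of all genes higher and 5.52% lower, the other being IFNAR1 (0.34 ± 0.1, adjusted p = 0.0469).

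**Figure D5:**
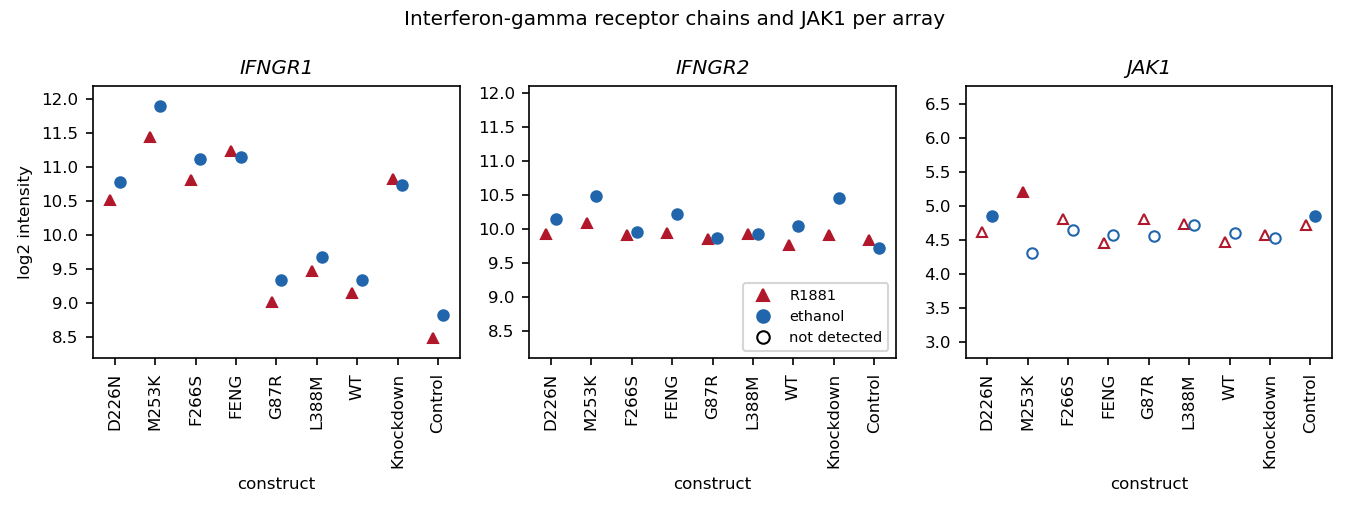
Log2 intensity of IFNGR1, IFNGR2 and JAK1 on each array (y axes) by construct (x axes), with triangles for R1881, circles for ethanol and open symbols where the probe was not detected. IFNGR1 read 10.51 to 11.89 in the 4 leftmost constructs and 8.48 to 9.67 in G87R, L388M, wild-type and control cells.

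Of 8 measured sensor and adaptor genes, 2 were higher in the forkhead class, against 7.19% of all genes, the kinase gene IKBKE (1 ± 0.14, adjusted p = 0.00052) and the double-stranded RNA receptor gene TLR3, at least 1.27-fold. TLR3 was detected only on arrays of D226N, M253K, F266S, FENG and knockdown cells, so its call is a description and no support. Knockdown cells gave 2 of 8 higher, against 4.56% of all genes, STING1 (0.91 ± 0.22, adjusted p = 0.021) and TICAM1 (0.65 ± 0.17, adjusted p = 0.0334). None of 5 measured inhibitors of the pathway, such as SOCS and PIAS genes, was called in the class or knockdown comparisons by limma. PIAS1 alone was higher with R1881 (0.41 ± 0.11, adjusted p = 0.0284).

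A list of 18 genes linked to interferon gamma had 10 measured, and 6 of these were higher and none lower in the forkhead class, against 7.19% of all genes higher and 5.52% lower. They were the chemokine genes CXCL10 (0.67 ± 0.15) and CXCL11 (at least 1.16-fold), the immunoproteasome genes PSMB8 (at least 1.54-fold) and PSMB10 (0.73 ± 0.09), the peptide transporter gene TAP1 (0.72 ± 0.08) and GBP4 (at least 1.07-fold). CXCL11, PSMB8 and GBP4 were detected only on arrays of D226N, M253K, F266S, FENG or knockdown cells. They passed the filter only through arrays on which they were high, so their calls here and below are a description and no support. Knockdown cells gave 3 of 10 higher, against 4.56% of all genes, CXCL10 (1.19 ± 0.24), CXCL11 (at least 1.56-fold) and PSMB10 (0.59 ± 0.13). With wild-type FOXA1 2 of 10 were lower than in knockdown cells, against 2.6% of all genes, CXCL10 at -1.01 ± 0.24 and CXCL11, which was undetected in wild-type cells.

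Of 23 measured other interferon-induced genes, 3 were higher and 1 lower in the forkhead class, 4 calls in 23 where 12.7% of all genes were called. TNFSF10 (TRAIL), a death ligand, was higher by 1.97 ± 0.17 (adjusted p = 7.43e-06, limma), NMI by 0.43 ± 0.12 and SP110 by 0.28 ± 0.08, and LY6E was lower at -0.43 ± 0.11. TNFSF10 was undetected in control cells, at 4.6 and 4.7, and read 7.92 and 7.72 in knockdown cells, at least 7.89-fold higher. HERC5, the ligase that attaches ISG15, read 8.65 and 7.85 in wild-type cells, against 6.92 and 6.88 in knockdown cells and 7.22 and 6.56 in control cells. It was higher in wild-type than in knockdown cells (1.35 ± 0.24, adjusted p = 0.00582) and than in control cells (1.36 ± 0.24, adjusted p = 0.0188), a direction that none of the 32 genes took in a call.

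Defining genes of other cell types were mostly undetected. Of 11 leukocyte, endothelial and fibroblast genes with a named probe, PTPRC, CD3E, LYZ, CSF1R, PECAM1, CDH5 and DCN failed the filter and CD14, VWF, COL1A1 and COL3A1 passed. The summed linear intensity of those 4 ran from 174 to 318 in the forkhead class and from 175 to 207 in the other class, and from 173 to 193 in knockdown cells and 217 to 242 in control cells. VWF was higher in the forkhead class (0.4 ± 0.12) and lower in knockdown cells (-0.87 ± 0.19), and COL3A1 was higher in knockdown cells (0.74 ± 0.19) and in M253K cells against wild type (0.83 ± 0.19). Their part in the results above was not tested. All 8 prostate luminal genes with a named probe passed the filter, and 6 of the 8 were lower in the forkhead class, against 5.52% of all genes, KLK3 at -1.44 ± 0.14 among them.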

How the data were processed

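Biotin-labelled total RNA of 18 LNCaP samples was measured on Illumina HumanHT-12 V4 BeadChips, 1 per condition. Per the file headers, the deposited main table gives a raw signal intensity and a detection p-value per array for 47303 probes. The submitters' processing notes name GenomeStudio. Background was still present in the deposited intensity, whose lowest value was 68.4. A second deposited table holds the authors' background-subtracted intensity values on a common distribution and served as an alternative.

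Background correction used neqc in limma 3.58.1 (R 4.3.3), which infers negative controls from detection p-values, with an offset of 16. Quantile normalization and log2 followed. The filter (p under 0.01 on at least 2 arrays) kept 20117 probes. In the platform annotation 30102 probes name 1 gene, 8 several and 17193 none, and symbols were updated through the GRCh38.p14 table. Where several probes of a gene passed, the one brightest on average was taken; 6 of the 32 genes had more than 1. The additive fit (construct and treatment) had 8 residual degrees of freedom, and the difference in androgen response had 4. Members called in a comparison are all named, uncalled ones are given by range with examples of each family, and of the other lists JAK1, FOXA1 and the called genes of largest change are named, with a few more chosen after their values were seen. The fit was also run on simulated data with independent noise for each gene and array. In the measured data 1 shared pattern held 52.8% of the variance left by the fit. The simulation therefore does not show how often false calls arise here.

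The members and lists were chosen with earlier results of these data known. No source used here gives slides or scan dates. Alternatives were median scaling, the deposited processed table, other detection filters, the mean of kept probes, array weights, trended and robust variances, and leaving out each array. Leaving out the 3 deviating arrays and the comparisons with knockdown cells were added after seeing the data. Columns belonging to other samples numbered 0. Near-identical family members, such as IFITM2 and IFITM3, can take up each other's RNA.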

Additional observations from a re-analysis of the deposited data

Results flagged for a closer look

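Of the 32 genes, 1 had a construct whose response to R1881 stood apart from those of the other constructs. IRF1 was lower with R1881 by -1.18 log2 units in FENG cells, at 6.6 with R1881 and 7.78 with ethanol, while the other constructs lay between -0.67 and -0.28. The gap to the nearest construct was 0.57 of the whole range, above Dixon's critical value for that number of values, which chance exceeds in about 1 of 20 groups. At that rate 1 gene among 32 is no more than chance would give. The FENG R1881 array is 1 of the 3 deviating arrays, and its part in this value was not tested.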

How the results depend on the processing

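Of 52 calls of the 32 genes over all comparisons, 25 were kept in every one of 26 other settings in which the gene was measured, and none changed direction. Median scaling in place of quantile normalization ended 19 of the 52, array weights 6, the 3 deviating arrays' omission 6, no detection filter 3, and the mean of kept probes and trended variances 1 each; the deposited processed table ended none. The processed table ranks the probes as the raw intensities do (lowest rank correlation 1), so it is close to the main setting and no separate check. With median scaling 1 gene was called between wild-type and knockdown cells (GBP2), 3 for FENG and 2 for F266S against wild type. Array weights gave 10 for androgen, 4 for D226N, 7 for M253K and 8 for F266S. Without the 3 deviating arrays, a choice made after seeing the data, 11 were called in knockdown cells and 7 for F266S. Leaving out each array in turn gave 3 to 8 calls for androgen, 3 to 8 for knockdown, 1 to 6 for wild type against knockdown, 1 to 2 for D226N, 8 to 16 for M253K, 4 to 8 for FENG, 2 to 5 for F266S and 7 to 13 for the forkhead class, and 0 for wild type against control, G87R and L388M. Median scaling moved the median of all genes by more than 0.1 log2 units for M253K (to -0.116), FENG (to -0.098) and L388M (to -0.208) against wild type and for wild type against knockdown (to 0.171). The set's medians there were 0.274, 0.117, -0.137 and -0.014.

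Counts over all genes moved more. Leaving out each array in turn moved them as well, from 1185 to 1910 for androgen, and moved most comparisons of constructs too. Where 1 array was left in a construct, counts over all genes are not given. Median scaling gave 941 in place of 1556 for androgen, 533 in place of 962 for knockdown, 326 in place of 536 for wild type against knockdown, 89 in place of 163 for D226N, 328 in place of 687 for FENG, 335 in place of 644 for F266S, 0 in place of 1 for L388M and 4 in place of 0 for the difference in androgen response. For M253K it gave 956 (424 higher, 532 lower) in place of 1519 (983 and 536), and for the forkhead class 771 (572 higher, 199 lower) in place of 1473 (833 and 640). Array weights gave 2411 for androgen, 1227 for wild type against knockdown, 206 for wild type against control (85 with equal weights), 815 for D226N, 535 for M253K, 1009 higher and 872 lower for F266S and 7 for L388M. Without the deviating arrays the counts were 1800 for knockdown, 1029 for wild type against knockdown, 158 for wild type against control, 348 for D226N and 1324 for F266S. The causes were not tested. The R1881 and ethanol arrays were matched by construct, which is a term of the androgen fit. No pairing beyond construct and treatment was possible because each condition had 1 array and the labels carry no replicate numbers. Genes near the detection limit (OASL, IFIT3, TRIM22, DTX3L, PARP14) have differences that the background compresses.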
